A study of Mus musculus with 11 samples.

Results

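Poised reprogramming cells were set against mouse embryonic stem cells (ESC), gene by gene, on 5 of the 11 arrays of the series. Poised is the submitters' word for cells that carry CD49d (gene Itga4) or CD73 (gene Nt5e) on their surface early in reprogramming. The 4 poised arrays hold CD49d+ and CD73+ cells, each double sorted at day 6 and at day 9. They came from passage 4 Rosa-rtTA +/- mouse embryonic fibroblasts infected with tetO-Oct4, tetO-Sox2, tetO-Klf4 and tetO-Myc, in which doxycycline switches on the 4 introduced factors, and day 0 is when doxycycline was added. The stem cells were the V6.5 line at passage 11, grown in medium with 12 percent knockout replacement serum, 3 percent cosmic calf serum and LIF. Infected cells were kept in fibroblast medium with 10 percent cosmic calf serum, so medium and cell type cannot be told apart between poised cells and ESC. Also used here are CD73- cells, which the labels call non-poised, and unsorted cells of both days, uninfected Rosa-rtTA +/- fibroblasts at passage 4 (MEF) and the partially reprogrammed line SC4 at passage 10. All poised, CD73- and unsorted cells carried the 4 factors and doxycycline. The labels give no infection or sort for MEF and ESC. SC4 and V6.5 are each 1 line. Each group has 1 array, and nothing in the labels says that the days or gates came from separate cultures.

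A gene was counted when log2 of its intensity differed from the ESC array by at least 1 unit (2-fold) in the same direction on all 4 poised arrays. Of 14301 named genes above the floor of the deposited values on at least 1 array, 1365 met this rule. With 1 ESC array the difference has no replicate check and no p-value. The spread given with a mean log2 difference is the standard deviation (SD) over the 4 poised arrays, which are 2 gates at 2 days and not replicates of a condition, and it holds nothing of the variation among ESC cultures.

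Reprogramming by Klf4, Oct4, Myc and Sox2 takes a fibroblast through intermediates that lose fibroblast genes and gain epithelial ones before the cell's own stem cell network is switched on. In stem cells that network rests on transcription factors such as Nanog, Sox2, Esrrb and Oct4, which act on one another's genes and on many targets. Some stem cell genes are known to come on early in reprogramming, and others, Nanog and endogenous Sox2 among them, late. CD73 is an enzyme that makes adenosine outside the cell, and CD49d is an integrin chain that binds fibronectin and VCAM1.

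The lowest deposited intensity is 100, and a value of 100 is only an upper limit. On each array 52.14 to 54.31 percent of probe sets stood at the floor. The ESC array had stem cell signals: Nanog, Sox2, Tdgf1, Esrrb, Zfp42 and Dppa5a were all above the floor there, with a summed intensity of 18286. All 6 lay at 100 on the 4 poised arrays, in MEF and in SC4. The sum was mostly Tdgf1, Nanog and Sox2, and Dppa5a was near the floor in ESC (147.8). Other stem cell genes near the floor in ESC were Pou5f1 (122.7), Dppa3 (130.9) and Tex19.1 (138.7). The ESC array also held signal from genes of fibroblasts and contractile cells. Of 24 contractile and cytoskeletal genes compared, 12 were at least 2-fold higher in ESC than in SC4 and 1 was lower. Their summed intensity was 44113 in ESC, 26398 in SC4, 29804 to 42168 on the poised arrays and 77849 in MEF. For 50 matrix genes the sums were 47385 in ESC, 33132 in SC4, 39671 to 64063 in poised cells and 197364 in MEF. The part of other cells in the ESC sample was not tested. Of 6 fixed fibroblast markers (Thy1, Col1a2, Col3a1, Pdgfrb, Twist2 and Prrx1), 1 (Twist2) was at the floor in ESC, and their sum was 1758 in ESC, 974 in SC4, 3782 to 6769 in poised cells and 24247 in MEF. The poised sums were mostly Prrx1 (2991 to 3953 against 279.7 in ESC). On both CD73+ arrays Thy1, Col1a2, Col3a1 and Pdgfrb lay below ESC, with Pdgfrb at 100 against 413.3. In CD49d+ cells at day 6 the same genes lay above ESC.

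Genes lower than ESC included Nanog, Sox2 and Tdgf1, which were at the floor in poised cells, and genes higher than ESC included Lama4 and Prrx1, which MEF also expressed, and Ano1, which MEF did not. In all, 702 genes (4.91 percent) were at least 2-fold lower than in ESC on all 4 poised arrays and 663 (4.64 percent) were at least 2-fold higher. The lower genes were divided by their level in the poised cells and in MEF. Of the 702, 220 were silent (at the floor on all 4 poised arrays), 21 were partly on (at least 2-fold above MEF on all 4) and 461 were above the floor on at least 1 poised array without such a rise. Of the 663 higher genes, 209 were newly on (at least 2-fold above MEF on all 4), 353 were still on (at least 2-fold higher in MEF than in ESC and not newly on) and 101 met neither condition. At a threshold of 2 log2 units, 203 genes were lower and 126 higher, and at 4 log2 units 14 and 7. Predicted genes and short RNAs made up 62 of the lower and 9 of the higher genes. A bulk array cannot tell fewer cells expressing a gene from less RNA in each cell, which holds for every level below.

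**Figure D1:**
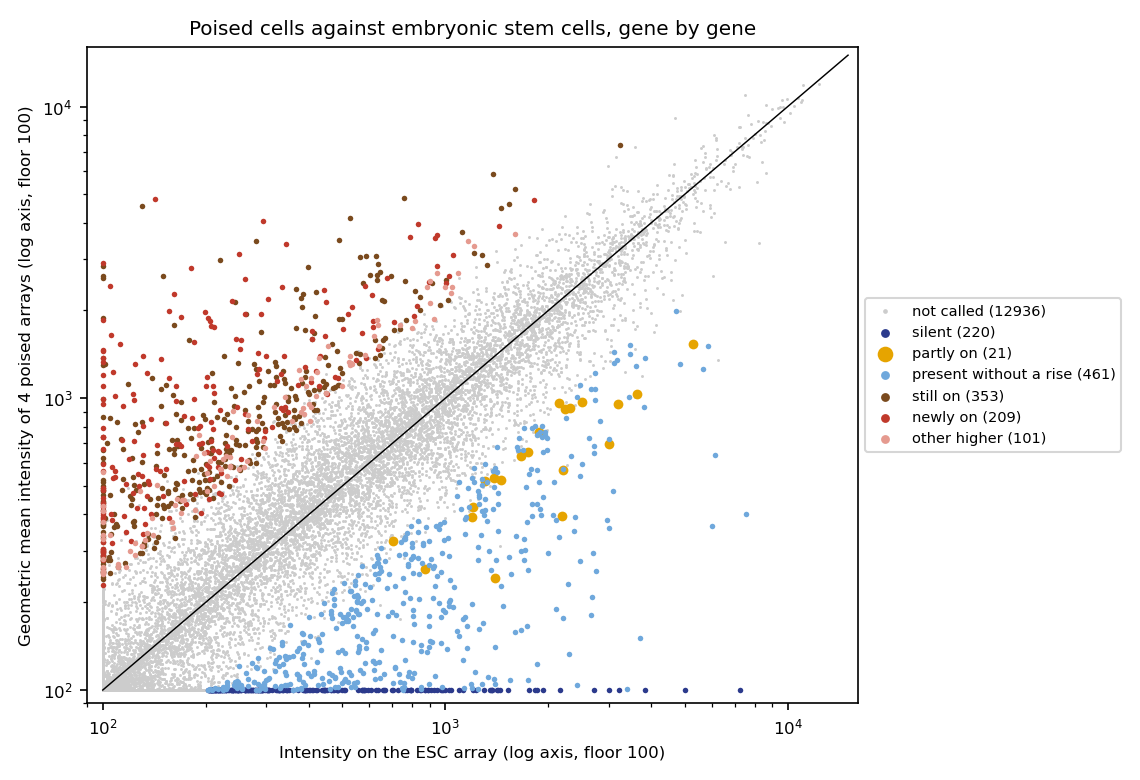
Each point is 1 of 14301 genes, with its intensity on the ESC array on the horizontal log axis and the geometric mean of the 4 poised arrays on the vertical log axis, coloured by class. The 220 silent genes lie along the floor of 100 at the bottom right, the 21 partly on genes lie above them to the right of the diagonal, and the 209 newly on and 353 still on genes lie above the diagonal.

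The silent genes with the largest bounds included factors of the stem cell network and genes of the early embryo. Tdgf1 encodes Cripto, a membrane co-receptor for Nodal. It had 100 on all 4 poised arrays and 7275 in ESC, a difference of at least 72.7-fold. Nanog, a homeobox factor of the network, had 100 on all 4 and 5019 in ESC, at least 50.2-fold. Sox2, an HMG box factor, had 100 on all 4 and 3829 in ESC, at least 38.3-fold. None of these 3 genes gave a signal above the floor in poised cells, MEF or SC4, and of the 3 only Nanog did so on another reprogramming array, with 167.1 in CD73- cells and 119.6 in unsorted cells at day 9. Sox2 is also an introduced factor, and no source used here says whether its probe set can read the introduced copy. The same doubt holds for Klf4, Myc and Pou5f1, the gene of Oct4. The Pou5f1 probe set was near the floor on every array and does not separate ESC from MEF (105.2): it had 115.5 to 142 on the poised arrays and 122.7 in ESC.

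Next in order within the silent class were Zfp981, a zinc finger gene (at least 32.1-fold), Zscan4e (at least 30.1-fold), Dppa2 (at least 27.1-fold), the ubiquitin ligase gene Trim6 (at least 21.6-fold) and Zscan4b (at least 19.3-fold). Zscan4 genes mark a passing state of stem cells that resembles the 2-cell embryo. Zscan4b, Zscan4c, Zscan4d and Zscan4e are near-identical copies, as are Zfp980 and Zfp981 with their neighbours, so the values of single copies are uncertain. Dppa2, which with its partner Dppa4 opens early embryo genes, stood at 2713 in ESC and at 684.7 in SC4. Dppa4 had 1446 in ESC and 100.5 in SC4. SC4 thus had Dppa2 above the floor where the poised arrays did not.

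Further silent genes of the network were Zfp42 (Rex1; 1528 in ESC, at least 15.3-fold), Tcf15 (871.5), Esrrb (487.2), Mycn (484.6), Otx2 (389.1) and Prdm14 (292.3). Silent signalling genes were Gdf3 (796.5 in ESC), Lefty2 (247.7) and the stem cell factor receptor Kit (1099). Tcl1, a cofactor of the Akt kinase, had 1027. Esrrb and Prdm14 have bounds of at least 4.87-fold and 2.92-fold only, because the ESC array itself read them dimly.

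Many germ cell genes were silent. Of 21 germ cell and 2-cell stage genes compared, 11 (52.4 percent) were lower than ESC on all 4 arrays, 10 of them silent, and 0 were higher. Over all genes the shares were 4.91 percent lower and 4.64 percent higher. The list median was -1.74 log2 units against 0 for all genes. Among them were Sohlh2, a germ cell helix-loop-helix factor (1417 in ESC, at least 14.2-fold), Mael (1001) and Piwil2 (334) of the piRNA pathway, the RNA-binding gene Dazl (795.7) and the helicase gene Ddx4 (762.9). Dnmt3l, the cofactor that guides new DNA methylation in germ cells, had 1357 in ESC, at least 13.6-fold above poised cells.

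Most of the 220 silent genes were at the floor outside the poised gates too. At the floor in MEF were 177 of them, and 185 stood there on each of the 8 reprogramming arrays. Over all 14301 genes, 1668 were at the floor in MEF. Of the 1590 at the floor on all 4 poised arrays, 988 were there on all 8. The class is defined by the floor on 4 of these 8 arrays, so part of the count of 185 is built in. Only 9 were above the floor on a CD73- array. In 197 the ESC array was at least 2-fold above MEF. Not all were stem cell genes: 12 were at least 2-fold below MEF on all 4 poised arrays. Eif2s3y, Uty and Uba1y are carried on the Y chromosome. Eif2s3y had 100 in poised cells and in MEF, 848.6 in ESC and 624.8 in SC4, and Uty had 100, 100, 439.2 and 671.8 in the same order. Differences between the sexes of the cell sources cannot be told apart from differences between poised cells and ESC on these arrays.

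Promoters of the genes at the centre of the comparison are printed to show the sequence behind the counts of CG pairs and motifs. RefSeq (GRCm38.p6) promoter windows, 250 bases before to 50 bases after the listed start, matched 157 of the 220 silent genes, 19 of the 21 partly on genes and 11136 of the 14301 genes compared, and the first listed window was used. Motifs were searched on both strands. They were the octamer ATGCAAAT bound by Oct4, the Sox motif CATTGT, and a composite of CATTGT, 1 further base and ATGCAAA, which overlaps the others. Capitals mark the composite in Nanog and the octamer in Zfp42, both found on the strand opposite to the one printed. Tdgf1 holds none of the 3 motifs, and Dnmt3b, a partly on gene with 30 CG pairs, is shown for contrast. Each is printed 5′ to 3′ along the strand of its gene.
Nanog (silent, chr6:122707239-122707538, plus strand): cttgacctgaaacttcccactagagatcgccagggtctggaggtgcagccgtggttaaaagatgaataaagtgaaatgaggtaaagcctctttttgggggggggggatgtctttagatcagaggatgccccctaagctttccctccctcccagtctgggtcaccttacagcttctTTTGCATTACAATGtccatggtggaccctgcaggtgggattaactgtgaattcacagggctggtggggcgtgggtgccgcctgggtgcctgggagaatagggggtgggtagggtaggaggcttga
Tdgf1 (silent, chr9:110946109-110946408, minus strand): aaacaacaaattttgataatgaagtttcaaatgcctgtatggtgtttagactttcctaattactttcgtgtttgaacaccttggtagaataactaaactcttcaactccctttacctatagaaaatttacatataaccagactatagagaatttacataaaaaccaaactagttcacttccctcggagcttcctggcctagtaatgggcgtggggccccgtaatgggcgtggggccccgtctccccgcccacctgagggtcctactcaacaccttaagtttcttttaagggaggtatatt
Zfp42 (silent, chr8:43306960-43307259, minus strand): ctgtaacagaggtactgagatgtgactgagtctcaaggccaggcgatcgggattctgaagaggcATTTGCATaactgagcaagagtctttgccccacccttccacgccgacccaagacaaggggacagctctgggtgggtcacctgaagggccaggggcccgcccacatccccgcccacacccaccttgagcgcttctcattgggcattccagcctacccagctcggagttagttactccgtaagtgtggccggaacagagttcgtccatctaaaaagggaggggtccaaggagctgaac
Dnmt3b (partly on, chr2:153649199-153649498, plus strand): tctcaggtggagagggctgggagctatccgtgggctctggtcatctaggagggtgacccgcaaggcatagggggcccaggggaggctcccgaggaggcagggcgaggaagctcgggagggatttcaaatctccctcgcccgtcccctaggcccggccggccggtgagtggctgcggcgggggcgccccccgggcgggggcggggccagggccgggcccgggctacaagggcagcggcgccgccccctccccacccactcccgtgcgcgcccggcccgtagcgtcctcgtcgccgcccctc

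Silent promoters held fewer CG pairs than those of all genes. The median was 12 CG pairs over the 157 silent promoters, 25 over the 19 partly on and 20 over all 11136, and 15.9 percent of silent promoters held under 5 CG pairs against 9.82 percent of all. Nanog has 4, Tdgf1 7 and Zfp42 11, but Sox2, also silent, has 27. The octamer lay in 3 silent promoters (1.91 percent; H2bc1, Mageb16 and Zfp42) and in 1.42 percent of all. The Sox motif lay in 13 (8.28 percent) and in 7.33 percent of all. The composite lay in 1 promoter of the 11136, that of Nanog. Shares of the octamer and Sox motif in silent promoters were thus near those of all promoters. A match is a run of letters and not a site shown to be bound.

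The 21 partly on genes were above MEF and below ESC on every poised array, and included the growth factor gene Fgf4 and the chromatin genes Dnmt3b, Jarid2 and Mtf2. Fgf4, the growth factor that drives ERK signalling in stem cells, had 926.9 and 808.7 in CD49d+ and CD73+ cells at day 6 and 1266 and 1205 at day 9. It had 3628 in ESC, 1763 in SC4 and 100 in MEF. Every poised array lay between the MEF and ESC values. CD73- cells had 245.8 and 469, below all poised arrays, and poised cells were higher in limma by 1.61 ± 0.107 log2 units (SE, adjusted p = 0.00476).

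Dnmt3b, the enzyme that sets new DNA methylation, had 227.4, 224.1, 279.7 and 240.7 on the poised arrays in that order (CD49d+ day 6, CD73+ day 6, CD49d+ day 9, CD73+ day 9), 1402 in ESC and 100 in MEF. The mean log2 difference from ESC was -2.53 ± 0.15 (SD, 4 arrays), 5.79-fold lower. The glycine cleavage enzyme Gldc had 615.7, 813.6, 835.1 and 562.2, with 3011 in ESC and 100 in MEF (4.32-fold lower than ESC). Both genes stood at least 2-fold from MEF and from ESC on each array. Jarid2, a partner of Polycomb repressive complex 2, had 834.8, 1166, 818.2 and 1063 against 3206 in ESC and 365.8 in MEF (3.34-fold lower than ESC). Its Polycomb partner Mtf2 was 3.36-fold lower than ESC and was at 100 in MEF. The cell cycle factor Mybl2 had 1582, 1607, 1778 and 1212 against 5279 in ESC and 514.3 in MEF. Bex1 (3.89-fold lower) and the melanosome regulator Mreg (5.52-fold lower) complete the 8 partly on genes with the largest smallest difference.

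The other 13 partly on genes were lower than ESC by 2.17-fold (the replication origin gene Orc1) to 3.07-fold (Ranbp17). They include the mismatch repair gene Msh6, the cohesin acetyltransferase Esco2, the helicase Blm, the telomere protein Terf1, the kinase Ttk and the chromosomal passenger genes Birc5 and Cdca8. The others were Bend4, Rcor2, C2cd5 and Arhgap19. In limma 2 of the 21 were higher in poised than in CD73- cells (Fgf4 and Jarid2) and 1 was lower (Mreg, by -1.09 ± 0.119, adjusted p = 0.0105).

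Some stem cell genes already stood at the ESC level. Of the 29 stem cell transcription factors compared, 19 (65.5 percent) were lower than ESC on all 4 arrays, against 4.91 percent of all genes. Higher were 2 (6.9 percent, Klf4 and Nr0b1), against 4.64 percent of all genes. The other 8 were neither, and the list median was -1.96. Of those 8, Etv5 and Etv4, ETS factors downstream of FGF signalling, had reached within 2-fold of ESC from at least 2-fold above MEF on all 4 arrays. Etv5 had 2058, 1848, 2193 and 2132 against 2080 in ESC and 255 in MEF. Gbx2, Foxd3, Myc, Sp5 and Rarg were within 2-fold of ESC without standing 2-fold above MEF, and Pou5f1 was near the floor throughout. Nr0b1 (Dax1), an orphan nuclear receptor, lay above ESC in all poised arrays, at 3908, 5284, 4755 and 5280 against 1815 in ESC and 100 in MEF. Klf4 had 3900 to 3997 against 834 in ESC and 704.5 in MEF, and is an introduced factor; the part of the introduced copy in its signal was not tested.

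Of the 29 other stem cell genes compared, 18 (62.1 percent) were lower on all 4 arrays and 0 higher, with a median of -2.12. The shares of all genes were 4.91 percent lower and 4.64 percent higher. L1td1, an RNA-binding gene derived from a transposon, had 391.5, 364.7, 724.6 and 612 against 668.6 in ESC and 100 in MEF. The actin nucleator Cobl (629.3 to 892.6 against 700.7 in ESC) and the junction gene Jam2 (1081 to 1697 against 1993) were likewise within 2-fold of ESC on all 4 arrays. The arginine transporter Slc7a3 had 1566 to 3376 against 1505 in ESC. L1td1 and Cobl had poised values on both sides of the ESC value. Jam2 lay below ESC on all 4 arrays. Slc7a3 lay above it on all 4, by more than 2-fold in CD49d+ cells at day 9 (3376). Tdgf1, Dppa2 and Dppa4 lay at the floor in the same arrays.

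**Figure D2:**
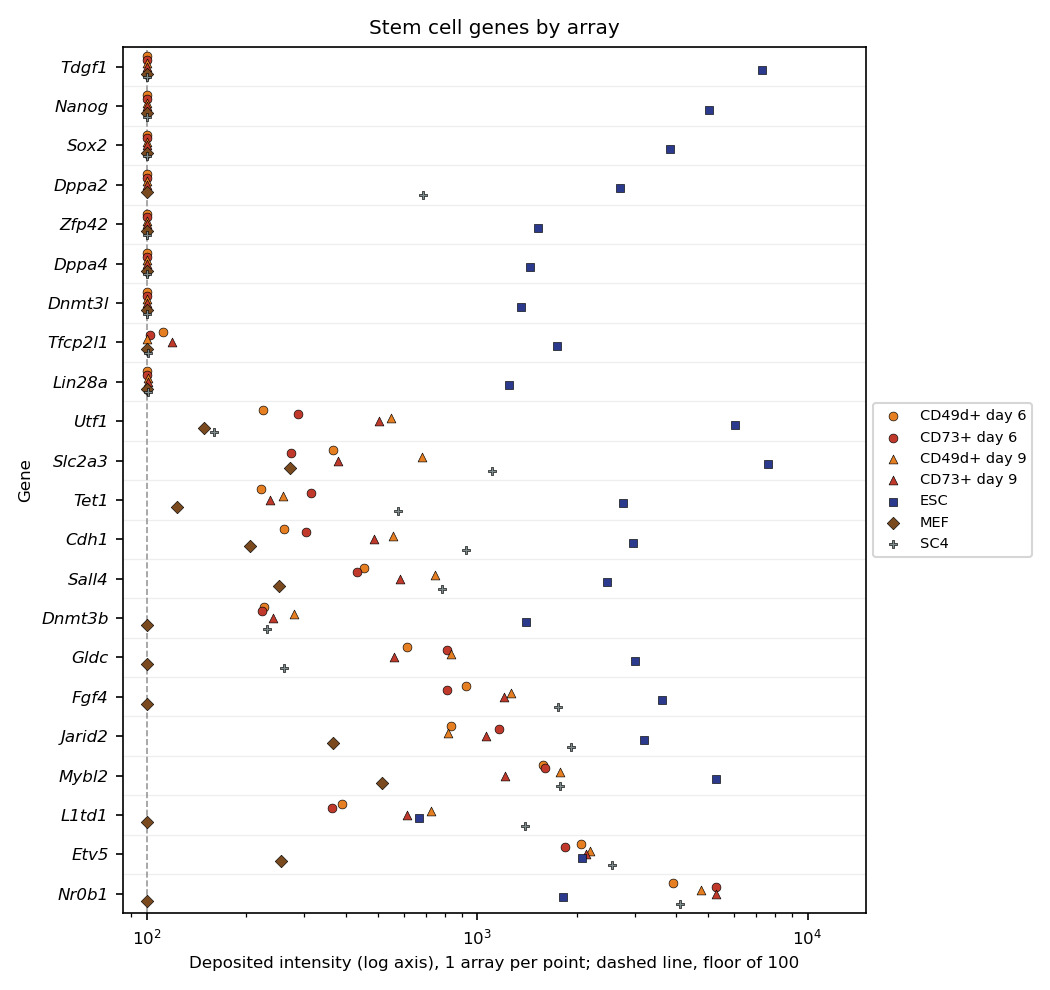
Deposited intensity (horizontal log axis) of 22 stem cell genes, 1 point per array: 4 poised arrays in orange and red, ESC in blue, MEF in brown and SC4 in grey, with the floor of 100 dashed. From top to bottom the poised points first lie at the floor (Tdgf1 to Dnmt3l). Those of Utf1 to Sall4 lie below ESC and are not 2-fold above MEF on every array. Then come levels between MEF and ESC (Dnmt3b to Mybl2), the ESC level (L1td1, Etv5) and levels above it (Nr0b1).

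Across all genes the same range was seen. The ESC array was at least 2-fold above MEF for 1715 genes. On all 4 poised arrays, 520 of them (30.3 percent) were at least 2-fold short of ESC, 920 (53.6 percent) were within 2-fold of it and 15 were at least 2-fold above it, while 260 differed between arrays. Of the 920, 522 were also at least 2-fold above MEF on all 4. MEF was at least 2-fold above ESC for 1708 genes, of which 369 (21.6 percent) were still at least 2-fold above ESC on all 4 poised arrays and 988 (57.8 percent) were within 2-fold of it. These shares use the same ESC and MEF arrays on both sides and are a description of levels.

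The 461 genes present without a rise held further stem cell genes at or near the MEF level. The largest difference among their named genes was that of H2ac1, a histone H2A gene, with 100, 104.5, 100 and 100 against 3392 in ESC. Zfp980 (23.3-fold lower) was also close to the floor. The growth factor Mdk had 155.3, 130.9, 182.2 and 137.5 against 3691 in ESC, 24.6-fold lower. Tfcp2l1, a factor of the naive network, had 100.6 to 119.5 against 1744 (16.1-fold), Sox15 had 103.9 to 106.2 against 1394 (13.2-fold), and Lin28a, which blocks let-7 maturation, had 100 to 101.2 against 1248 (12.4-fold). Igfbp2 was 17.3-fold and the glycine cleavage gene Amt 12-fold lower. These genes sat within a small step of the floor, so membership in this class and in the silent class depends on little, and their folds may understate the difference.

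Others in the class had clear signal in poised cells. Utf1, a chromatin factor of stem cells, had 224.6, 287.5, 551 and 503.8 against 6013 in ESC, 149.1 in MEF and 160.1 in SC4. CD73- cells had more, 574 and 1012, and Utf1 was lower in poised cells by -1.06 ± 0.133 (limma, adjusted p = 0.0144). Slc2a3, a glucose transporter, had 367.2, 273.1, 680.9 and 380.1 against 7571 in ESC (18.9-fold lower). Tet1, an enzyme that oxidises methylated DNA, had 222, 315.2, 258.5 and 236.4 against 2762 (10.8-fold lower), and Sall4 had 454.3, 434.1, 747.7 and 583.6 against 2474 (4.57-fold lower). Utf1 and Sall4 were higher on both day 9 arrays than on both day 6 arrays. At day 9 both genes lay more than 2-fold above MEF (251.2 for Sall4). Klf5, Tbx3 and Klf2, factors of the naive state, were 6.4-fold, 4.45-fold and 5.14-fold lower than ESC. Nr5a2 was uneven, with 113.3, 100, 414.8 and 161.1 against 894.9. In 302 of the 461 genes ESC was at least 2-fold above MEF, and 98 were at least 2-fold below MEF on all 4 poised arrays.

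Among enzymes and chromatin regulators most members lay within 2-fold of ESC on at least 1 array. Over all genes 4.91 percent were lower and 4.64 percent higher. Of 18 DNA methylation and demethylation genes, 4 (22.2 percent) were lower (Dnmt3b, Dnmt3l, Tet1 and Gadd45b) and 1 (5.56 percent) was higher (Tet3, 2.38-fold). The maintenance methyltransferase Dnmt1 had 2519 to 2845 against 2753 in ESC and 794.3 in MEF, and its partner Uhrf1 had 1666 to 1953 against 2125. Tet2 had 2502 to 3044 against 1879. The other new methylation enzyme, Dnmt3a, had 276.5 to 321.9 against 511.7 and was not counted as lower. Dnmt3b and Dnmt3l thus stood below ESC by the rule, while Dnmt1 and Tet2 stood at or a little above it. Of 34 Polycomb and histone modifiers, 5 (14.7 percent) were lower (Jarid2, Mtf2, Cbx7, Kdm4c and Sirt1) and 0 higher, with a median of -0.2. The Polycomb core genes Ezh2 (2251 to 2465 against 3835) and Suz12 (1923 to 2377 against 2792) were within 2-fold of ESC.

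Epithelial genes were split. Of 37 compared, 15 (40.5 percent) were lower than ESC on all 4 arrays and 5 (13.5 percent) were higher, with a median of -1. The shares of all genes were 4.91 and 4.64 percent. The E-cadherin gene Cdh1 had 260.1, 304.6, 558.5 and 487.6 against 2962 in ESC and 205.8 in MEF (7.73-fold lower). Epcam had 286.5, 263.2, 787.1 and 400.7 against 2393 (6.09-fold lower). Claudins 4 and 6, keratin 18, the splicing factor Esrp1, the protease inhibitor Spint1 and the factors Grhl3 and Elf3 were lower too. Cdh1 was above MEF on all 4 poised arrays, and by more than 2-fold only at day 9. Epcam was above MEF at day 9, and both genes were far below ESC at both days. The 5 higher genes were the desmosome genes Dsp and Pkp1, the hemidesmosome integrin Itgb4, the factor Ehf and the splicing factor Esrp2. Dsp had 1299, 1296, 1500 and 1510 against 299.7 in ESC and 100 in MEF, and was higher in poised than in CD73- cells by 1.27 ± 0.078 (limma, adjusted p = 0.00445). Itgb4 had 939.6, 983.1, 1594 and 2872 against 283.2. Of 23 epidermal genes 5 (21.7 percent) were higher than ESC (Perp, Anxa8, Tgm3, Krt13 and Krt6b) and 1 (4.35 percent) was lower. Perp, a desmosome gene that p53 activates, had 3125 to 3734 against 342.2 in ESC and 100 in MEF. The keratinocyte markers Krt14, Krt6a and Ivl had a summed intensity of 369 to 557 in poised cells and 343 in ESC, with Ivl at the floor on all 4 poised arrays.

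Of the 8 leading genes still on, Tbx15 and Prrx1 belong to the list of mesenchymal factors, Lama4 to the matrix list and Xist to the imprinted list. Xist, the RNA that silences an X chromosome in female cells, differed most, with 4185, 4848, 3878 and 5530 against 129.8 in ESC, 3550 in MEF and 100 in SC4 (35.2-fold). CD73- cells had 4168 and 4073. Xist was high in every sample made from this fibroblast stock and near the floor in both lines, and it goes with the Y-linked genes above. Lama4, a laminin chain, had 2670, 2860, 2638 and 3218 against 100 in ESC and 2407 in MEF, at least 28.4-fold higher. Smarca2, a chromatin remodelling ATPase, had 2522, 2945, 2030 and 3136 against 100 in ESC and 1311 in MEF, at least 26.2-fold. Capn6 was at least 25.8-fold higher than ESC, with 1683 to 3802 against 2258 in MEF. Xist, Lama4 and Smarca2 were above MEF on every poised array, and Capn6 lay on both sides of MEF.

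The homeobox gene Prrx1, a factor of limb mesenchyme, had 3892, 3953, 3125 and 2991 against 279.7 in ESC and 5138 in MEF. SC4 had 292.7, next to ESC. The T-box gene Tbx15 had 1505 to 2416 against 100 in ESC and 2301 in MEF (at least 18.8-fold). The lipopolysaccharide co-receptor Ly96 was 17.6-fold and Ahnak2 13.5-fold higher than ESC. In limma Prrx1 and Tbx15 were higher in poised than in CD73- cells, by 0.88 ± 0.0993 (adjusted p = 0.0112) and 0.45 ± 0.0818 (0.0316). Lama4 and Smarca2 were higher by 0.98 ± 0.179 (0.0324) and 1.59 ± 0.217 (0.0175). The same poised arrays placed these genes among the leading ones, so the contrast is no separate support for them.

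**Figure D3:**
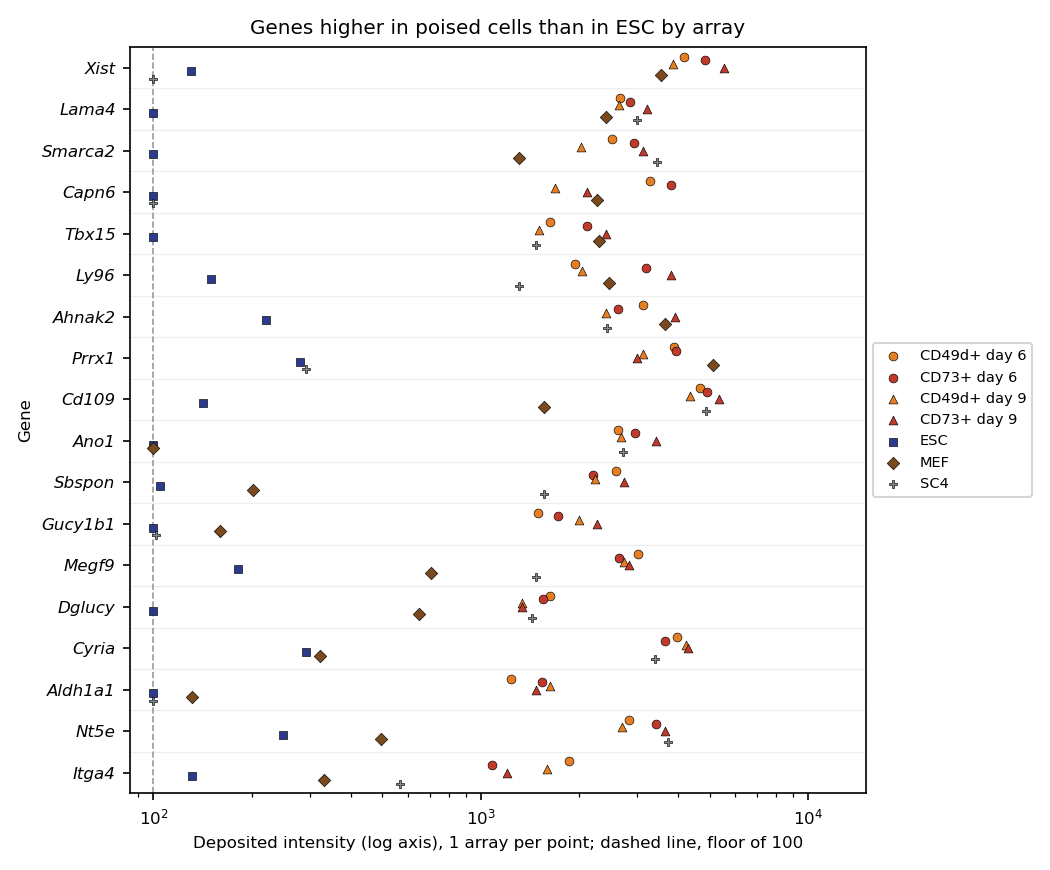
Deposited intensity (horizontal log axis) of 18 genes higher in poised cells than in ESC, 1 point per array, with the floor of 100 dashed. For the 8 genes from Xist to Prrx1 the MEF point lies among or near the poised points, and for the 10 genes from Cd109 to Itga4 the MEF point lies at least 2-fold to the left of all 4 poised points.

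Mesenchymal factors and matrix genes are given beside the shares of all genes, 4.64 percent higher and 4.91 percent lower. Of 49 mesenchymal transcription factors 10 (20.4 percent) were higher than ESC on all 4 arrays and 0 lower: Prrx1, Tbx15, Tbx18, Osr1, Nfib, Nfix, Mkx and Mef2c were still on, Foxd1 was newly on and Meox2 met neither condition. Of 29 collagen chains 0 were higher and 1 (3.45 percent) was lower (Col18a1). Of 50 matrix genes 3 (6 percent) were higher (decorin, Vcan and Lama4) and 4 (8 percent) lower. The collagen and matrix shares are near those of all genes and are no result about these lists. Decorin (Dcn) had 1516, 2320, 1286 and 1414 against 178.5 in ESC and 6584 in MEF. Col1a1 had 1537, 351.5, 719.7 and 303.6 against 932.9 in ESC and 344.2 in SC4, so that the ESC value lay within the range of the poised arrays. Of 24 contractile and cytoskeletal genes 4 (16.7 percent) were lower (Cnn1, Myl9, Des and Smtn) and 1 (4.17 percent) was higher (Lmna, 2.92-fold). The smooth muscle actin gene Acta2 had 5172, 463, 3104 and 449.5 against 6236 in ESC and 100 in SC4. The collagen, matrix and contractile lists each had a higher summed signal in ESC than in SC4 (6563 against 4634 for collagens), and the part of that signal in these counts was not tested. Of the 49 mesenchymal factors 1 was at least 2-fold higher in ESC than in SC4 and 9 were at least 2-fold lower. SC4 itself had 36 of them above the floor and ESC had 35. The part of other cells in their ESC values was not tested.

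Hox genes and cell cycle inhibitors were among the higher genes. Of 32 Hox genes 5 (15.6 percent, against 4.64 percent of all genes) were higher than ESC (Hoxa9, Hoxc6, Hoxc8, Hoxd8 and Hoxd13) and 0 lower. Hoxd13, which patterns the digits, had 706.6, 731.6, 716.5 and 539.2 against 114.7 in ESC and 959.6 in MEF. Of 25 p53 and cell cycle inhibitor genes 7 (28 percent) were higher (6 still on and Rb1 newly on) and 0 lower, with a median of 0.6. Cdkn2a, which encodes p16 and p19Arf, had 775.9, 1006, 775.9 and 779.8 against 130.4 in ESC and 731.5 in MEF (6.36-fold higher). The retinoblastoma gene Rb1 had 3097 to 4064 against 948.1 in ESC and 889.1 in MEF, and its relative Rbl2 was 4.53-fold higher. Cdkn1a (p21) had 6973 to 7742 against 3243. With each array centred on its median the p53 list had 4 higher genes in place of 7. Ccnd1 (2.28-fold), Ccnd2 (6.4-fold) and Cdk6 (2.79-fold), which drive cells out of G1 phase, were higher as well. Ccnd3 and E2f1 went the other way and were lower than ESC, as were Birc5, Cenpf and Mybl2. Of 49 replication and mitosis genes 5 (10.2 percent) were lower and 3 (6.12 percent) higher, against 4.91 and 4.64 percent of all genes. With centring that split was 8 and 2.

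Newly on genes were at least 2-fold above both MEF and ESC on all 4 arrays, whether or not MEF or ESC expressed them. Of the 209, 48 were at the floor in MEF and 38 in ESC. ESC was at least 2-fold above MEF for 15 of them, and MEF was at least 2-fold above ESC for 16. Cd109, a surface co-receptor that limits TGF-beta signalling, had 4683, 4900, 4366 and 5343 against 141.7 in ESC, 1565 in MEF and 4881 in SC4 (33.9-fold above ESC). The chloride channel Ano1 had 2630, 2958, 2675 and 3432 against 100 in both ESC and MEF and 2716 in SC4 (at least 29.1-fold). Sbspon, a matrix protein with a thrombospondin repeat, had 2581, 2195, 2227 and 2746 against 104.8 in ESC and 201.5 in MEF. CD73- cells had 167.2 and 283.5 for Sbspon, far below every poised array, and limma put the difference at 3.48 ± 0.263 (adjusted p = 0.00585).

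Gucy1b1, a subunit of soluble guanylate cyclase, had 1501, 1726, 1993 and 2266 against 100 in ESC, 159.6 in MEF and 101.7 in SC4 (at least 18.5-fold above ESC). Aldh1a1, which makes retinoic acid, had 1238, 1542, 1624 and 1474 against 100 in ESC, 131.1 in MEF and 100 in SC4. Gucy1b1 and Aldh1a1 were the only 2 of the 8 leading newly on genes with SC4 beside ESC. Megf9 (15.5-fold), Dglucy (at least 14.6-fold) and Cyria (13.8-fold), a regulator of actin, were the others. Against CD73- cells Gucy1b1 was higher by 2.31 ± 0.0947 (limma, adjusted p = 0.00243) and Cyria by 1.79 ± 0.0861 (adjusted p = 0.00317), while Dglucy differed by 0.11 ± 0.0685 (adjusted p = 0.374).

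Of 32 surface markers used in reprogramming 8 were higher than ESC and 3 lower. Nt5e and Itga4, on which the cells were sorted, were 12.6-fold and 10.7-fold above ESC and are no finding. Without them 6 of 30 markers (20 percent) were higher, against 4.64 percent of all genes. The hyaluronan receptor Cd44 had 819.8, 912.6, 855.3 and 1545 against 100 in ESC and 396.8 in MEF. Cd24a had 3683 to 4455 against 1432, and Cd47, Cd34, Cd200 and Nrp2 were higher too. Icam1, a marker of late reprogramming, had 199.2, 131.8, 193.9 and 133.4 against 1258 in ESC and 414.7 in MEF (7.79-fold lower). On these levels all 4 poised arrays were high in Cd44 and low in Icam1 and Kit relative to ESC.

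Genes of other lineages appeared among the newly on. Of 10 endothelial markers compared, Tek, the angiopoietin receptor, was newly on (1127, 1583, 1055 and 1673 against 100 in ESC and 117.4 in MEF, with 1299 in SC4). Pecam1, which stem cells express, was lower, so that 10 percent of the list differed in each direction. The endothelial genes Tie1 and Kdr had 100 to 101.4 on the poised arrays and Cdh5 100 to 119.3, so Tek stood alone in that list. Neural genes Nefl, Tac2 and Uchl1 were newly on and Map2 still on, 4 of 24 compared (16.7 percent, against 4.64 percent of all genes), with 0 lower. Tac2, a neuropeptide precursor, had 1068, 588.9, 1611 and 2902 against 124.6 in ESC. The neural markers Tubb3, Nefl, Stmn2 and Map2 had sums of 7509 to 9599 in poised cells, 4755 to 6419 in CD73- cells, 7533 in SC4, 3652 in ESC and 1407 in MEF. These sums were mostly Stmn2 (5956 to 6837 in poised cells). Stmn2 and Nefl were above both ESC and CD73- cells of the same day. Tubb3 was lower on all 4 poised arrays (187.4 to 242.7) than in ESC (330.1), MEF or CD73- cells. Map2 was above ESC and below CD73- cells of the same day. Of the macrophage and blood markers Ptprc and Csf1r were at the floor on every array, and 0 of 4 compared genes of that list differed. Of 6 skeletal muscle genes 2 (Actc1 and Acta1) were lower and 0 higher.

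**Figure D4:**
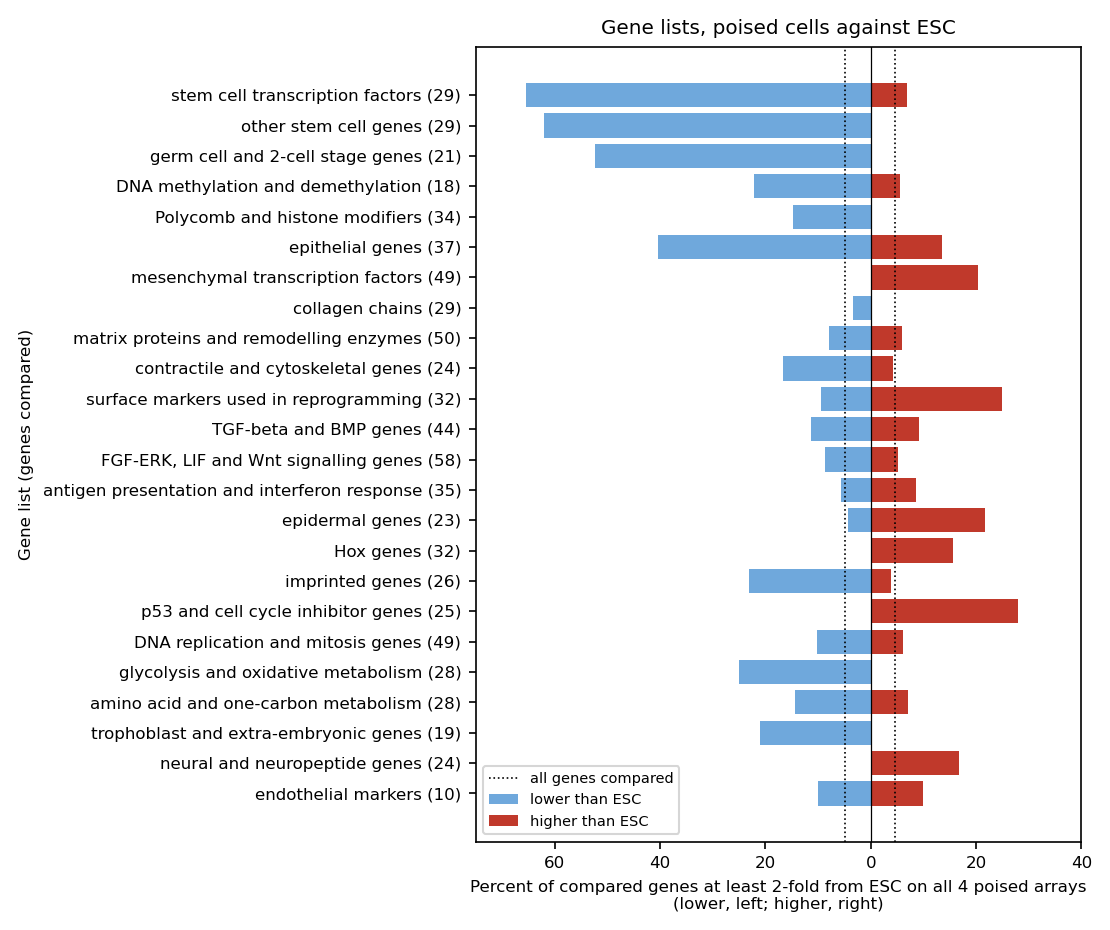
For each list of at least 10 compared genes, the percent of genes at least 2-fold lower than ESC on all 4 poised arrays (blue, to the left) and higher (red, to the right), with the shares of all 14301 genes as dotted lines at 4.91 and 4.64. The stem cell, germ cell and epithelial lists reach furthest to the left (40.5 to 65.5 percent) and the p53, surface marker, epidermal and mesenchymal factor lists furthest to the right (20.4 to 28 percent). The surface marker share includes both genes of the sort.

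Metabolic and signalling lists are given beside the shares of all genes, 4.91 percent lower and 4.64 percent higher. Of 28 genes of glycolysis and oxidative metabolism 7 were lower (25 percent) and 0 higher, with a median of -0.55: Slc2a3, the phosphofructokinases Pfkl (3.41-fold) and Pfkp (2.79-fold), the aldolase Aldoc, Pdk4, Cox7a1 and Ndufa4l2. Of 58 FGF-ERK, LIF and Wnt genes 5 (8.62 percent) were lower (Fgf4, Fgfr2, Socs3, Igfbp2 and Igfbp5) and 3 (5.17 percent) higher (Osmr, Dusp14 and Igf1r). Socs3, a feedback inhibitor induced by LIF, had 162.3 to 190.3 against 974.2 in ESC (5.46-fold lower), and LIF is named only for the ESC medium. Osmr, the oncostatin M receptor, had 1616, 1094, 1886 and 3055 against 161.4 in ESC and 3821 in MEF. Of 44 TGF-beta and BMP genes 5 (11.4 percent) were lower (Bmp4, Bmp7, Fstl3, Smad7 and Tgif1) and 4 (9.09 percent) higher (Tgfbr2, Fstl1, Smad5 and Id1). The type II receptor Tgfbr2 had 419.2 to 641.7 against 114.4 in ESC and 1876 in MEF. Of 26 imprinted genes 6 were lower (Igf2, Rian, Peg3, Peg10, Mest and Phlda2) and 1, Xist, was higher. Of 19 trophoblast and extra-embryonic genes 4 were lower and 0 higher, of 28 amino acid and one-carbon genes 4 were lower and 2 higher, and of 35 antigen presentation and interferon genes 2 (5.71 percent) were lower and 3 (8.57 percent) higher. The last of these shares and those of the FGF-ERK, LIF and Wnt list are near those of all genes and are no result about these lists.

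The lists were read against a shift of all genes. Centring each array moved the median of all genes by -0.109 log2 units and gave 829 lower and 527 higher genes in place of 702 and 663 while quantile normalization gave 747 and 638. The stem cell lists had the same counts of lower genes (19 and 18) under both. With centring the mesenchymal factors had 8 higher genes and a median of -0.06 in place of 0.05, the DNA methylation list had 0 higher, the stem cell factors 1 higher, the surface markers 7, the Hox genes 4 and the TGF-beta and BMP genes 6 lower and 2 higher. Single members near the threshold thus moved with the scaling. At its edge, the smallest of the 4 differences had a size of 1.002 log2 units for Prex1 and 1.005 for Pbx2 just inside and of 0.999 for Tbl2 just outside on the lower side, followed by Nrm. On the higher side it was 1.002 for Map2k3 and Akr1b10 inside and 0.998 for Stmn2 outside, with Notch2 beside it.

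The 4 poised arrays differed among themselves in how far they stood from ESC. Lower by 2-fold were 890 genes in CD49d+ and 1043 in CD73+ cells at day 6, and 864 and 1101 at day 9. Higher were 987 and 1113 at day 6 and 893 and 1123 at day 9. CD73+ cells thus had more genes past 2-fold than CD49d+ cells at both days and in both directions. Counting genes past 2-fold on both arrays of a gate and within 2-fold on both arrays of the other gate, 122 were lower in CD73+ cells and 17 in CD49d+ cells, and 152 and 52 were higher.

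Of these genes 26 belong to a fixed list, among them 6 matrix genes, 2 collagens and 5 FGF-ERK, LIF and Wnt genes. Tnc, an adhesion-modulating matrix protein, had 1912 and 831.8 in the CD49d+ gate, at day 6 and day 9, against 143.5 and 125 in the CD73+ gate. The ESC array had 1171. Bgn, Loxl1, Loxl3, Col1a1 and Pdgfrb were likewise lower than ESC in CD73+ cells and near it in CD49d+ cells. Bgn had 3380 and Loxl1 517.6 in ESC, against 183.7 and 105.9 in SC4, and the part of other cells in the ESC values was not tested. Postn, a matricellular protein, stood at 2042 and 1263 in the CD49d+ gate. The CD73+ gate had 252.8 and 349.7, next to the 356 of ESC. Acta2 differed between the gates by 3.13 ± 0.33 log2 units, which did not pass (limma, adjusted p = 0.0587), nor did Postn (2.43 ± 0.387, adjusted p = 0.0621). Over all genes 4 passed between the gates, none of which differed from ESC on all 4 arrays, and 3211 had an unadjusted p under 0.05. They were Scarna2, higher in CD49d+ cells, and A630089N07Rik, Gabra2 and Mctp1, higher in CD73+ cells, named after their values were seen.

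Between day 6 and day 9, limma called 0 of 13313 genes, with 1545 at an unadjusted p under 0.05. Members with large day 9 minus day 6 differences included Ehf (1.28 ± 0.158), Epcam (0.96 ± 0.146) and Utf1 (0.91 ± 0.108). L1td1 (0.81 ± 0.0679) and Cdh1 (0.69 ± 0.124) were also higher at day 9. In this order their adjusted p in limma was 0.114, 0.157, 0.114, 0.093 and 0.194. Large differences were not confined to these genes. Tac2 was higher at day 9 (1.42 ± 0.347, adjusted p = 0.275) and the mesenchymal factor Meox2 was lower (-1.23 ± 0.0967, adjusted p = 0.093). Cdh1, Epcam and Utf1 were on both day 9 arrays above both day 6 arrays, and on all 4 they stayed at least 2-fold below ESC.

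Poised cells were also set against CD73- cells of the same days, to show how far the differences from ESC belong to the gates. In limma on the 8 reprogramming arrays, 953 of 13313 genes (7.16 percent) were higher in poised cells and 646 (4.85 percent) were lower (Benjamini-Hochberg, adjusted p under 0.05). Of the 209 newly on genes 119 were higher (56.9 percent) and 6 lower. Of the 353 still on genes 79 were higher (22.4 percent) and 15 lower, and of the 461 genes present without a rise 29 were higher (6.29 percent) and 40 lower (8.68 percent). Only 35 of the 220 silent genes left the floor on a reprogramming array and could be tested, of which 0 were higher and 1 was lower. The poised arrays enter both the classes and this contrast. The counts, and the limma values of single genes given above, thus describe the classes and are no independent support for them. The spread in this fit is the disagreement between the days with 3 residual degrees of freedom, and the p-values measure only that spread.

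These calls rest on single arrays. Without the day 6 unsorted array, which is on neither side of the contrast, 1 gene passed in place of 1599. Without CD73- cells at day 6 or day 9 the counts were 51 and 131, and 21 and 45 newly on genes were higher. Without CD73+ cells at day 6 or day 9 they were 250 and 213, without CD49d+ cells 788 and 1775, and without unsorted cells at day 9 567. On the 6 sorted arrays alone 1087 genes passed, 112 of the newly on genes being higher. Of the 128 listed or named genes past the threshold, all 128 missed it under at least 1 alternative and 0 changed direction.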

How the data were processed

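Each sample was hybridised to 1 Affymetrix mouse array. The values are intensity on a linear scale with a floor of 100, as deposited by the authors in 1 table of 41345 probe sets. Partek is named in the submitters' processing notes without a version; summarisation and scaling: not given in the sources used here. Each gene's value was taken from probe sets with 1 symbol in the platform annotation (23521; 1814 had several and 16010 none and were not used), as the probe set with the highest mean where a gene had several. Genes at the floor on every array were left out (14301 of 22180 remained). Log2 of each poised array minus ESC was taken, with no further scaling.

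The 8 reprogramming arrays were fitted with limma 3.58.1 (R 4.3.3), with population and day as additive terms and Benjamini-Hochberg adjustment over 13313 genes above the floor on at least 1 of them. The fit was tested on simulated data. Samples were grouped by their labels. Centred arrays, quantile normalization, a floor of 200, a threshold of 2 log2 units, other filters and leaving out each array were tried. The precision is limited by 1 array per group.

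The comparison, its members and the 26 gene lists were chosen with earlier results of these data known. Genes named are, in each class, the 8 whose smallest difference from ESC is largest (predicted genes and short RNAs left out), members of the lists, Nanog, Sox2 and Tdgf1, and the genes next to the threshold; others are said to be chosen after their values were seen. A fold is 2 to the mean of the 4 log2 differences, and "at least" is written where one side is at the floor. Promoters come from RefSeq (GRCm38.p6).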

Additional observations from a re-analysis of the deposited data

How the results depend on the processing

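With a threshold of 2 log2 units the counts were 203 lower, 126 higher, 87 silent, 0 partly on, 116 present without a rise, 54 still on, 48 newly on and 24 other higher genes. Centred arrays gave 65 other higher genes, a floor of 200 gave 257 present without a rise, and the mean of the 4 poised arrays gave 46 partly on and 281 other higher. Leaving out 1 poised array gave 725 to 765 lower, 689 to 731 higher and 21 to 36 partly on genes. For poised against CD73- cells, limma called 994 genes with no filter and 1 to 1775 with 1 array left out. Between days it called 110 with centred arrays against 0. Between the gates, under alternatives chosen after seeing the data, it called 657 with centred arrays, 342 with quantile normalization, 411 with a floor of 200, 160 with no day term, 1 with no filter, 0 on the sorted arrays alone and 0 with any array left out. The cause of these moves was not tested, and the other counts of genes moved less. Of 320 alternative values for 40 named genes, 268 moved by less than their spread, 52 by more, and 0 changed direction. The day term pairs the populations by day, and without it limma called 1181 genes between poised and CD73- cells in place of 1599. The floor limits what can be said of dim genes.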

Other observations

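Some genes that differed from ESC on all 4 poised arrays varied widely among those arrays, and are named after their values were seen. The kallikrein Klk1 had 665, 433.8, 1167 and 2490 (CD49d+ and CD73+ cells at day 6, then at day 9) against 100 in ESC. The interferon-induced gene Oas2 had 496.1, 287.3, 203 and 1148 against 100, with the highest value in CD73+ cells at day 9. Rcn3, a calcium-binding protein of the secretory pathway, had 880, 270.8, 577.4 and 180 against 1904, higher in CD49d+ than in CD73+ cells at both days.

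Probe sets without a gene symbol were also compared. Of 7723 above the floor on at least 1 array, 180 (2.33 percent) were at least 2-fold lower than ESC on all 4 poised arrays and 99 (1.28 percent) were at least 2-fold higher.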
